A study of Mus musculus with 2 samples.

Results

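The wide p300 peaks of the embryonic mouse neocortex are the 750 of 6629 peaks (11.3%) whose called width was 1600 bp or more. They were chosen by that width alone, so their width is a description and not a result. The peaks mark places where the co-activator p300 was bound in the dorsal cerebral wall, the part of the forebrain that holds the developing neocortex and its progenitor layers, dissected from E14.5 embryos of Swiss Webster mice. Chromatin immunoprecipitation followed by sequencing used 30 µg of chromatin and 4 µg of the p300 antibody C-20, after fixation of 0.15 g of tissue in 1% formaldehyde for 15 min, and sheared chromatin taken before the precipitation was sequenced as input. Each of the ChIP and the input is a single library without a replicate, 1 of each, and the tissue was a mixture of cell types. The peak list gives a place and a width for each peak but no score, summit or read count, so the depth behind each peak is unknown, and the input was not analysed here.

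p300 is a histone acetyltransferase that transcription factors recruit to active enhancers, and its binding has been used to find enhancers in a tissue. Enhancers can lie far from the gene they act on, and genes for developmental transcription factors often sit in large non-coding stretches that hold many of them. In the cortical wall, radial glia give rise through intermediate progenitors to neurons of the deep and then the upper layers, under the control of homeodomain, Sox, Nfi and basic helix-loop-helix (bHLH) factors. The bHLH proteins, which include the Neurog and Neurod families, bind 6-base words called E-boxes, and a short AT-rich word is the core site of many homeodomain proteins.

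Stretches of sequence from 8 wide peaks are shown here because the main differences from the narrower peaks lay in where such words fell. Each is the window of 150 bases in its peak with the most matches to both E-box forms searched, CAGCTG and CATCTG, and to the homeodomain word TAATTA, and matches are in capitals. On the plus strand printed here, CATCTG can also appear as CAGATG, its reverse complement. All coordinates are those of mm9 (NCBIM37). The first group shows E-boxes from peaks among the 20 widest and from peaks flanked by the cortical genes Fezf2 and Id4.
Peak between Fmod and Btg2, chr1:135957846-135957995, plus strand: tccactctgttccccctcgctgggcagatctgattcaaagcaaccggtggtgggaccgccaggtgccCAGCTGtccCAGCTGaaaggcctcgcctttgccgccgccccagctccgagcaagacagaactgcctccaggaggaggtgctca
Peak within Kif21a, chr15:90847227-90847376, plus strand: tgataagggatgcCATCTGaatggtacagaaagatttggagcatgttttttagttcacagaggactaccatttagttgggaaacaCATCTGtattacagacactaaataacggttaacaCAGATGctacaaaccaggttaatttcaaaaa
Peak between Btn2a2 and Hist1h4h, chr13:23609798-23609947, plus strand: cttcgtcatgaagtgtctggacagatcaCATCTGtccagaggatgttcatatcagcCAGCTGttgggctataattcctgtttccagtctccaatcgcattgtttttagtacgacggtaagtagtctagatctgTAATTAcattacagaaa
Peak beside Fezf2, chr14:13170239-13170388, plus strand: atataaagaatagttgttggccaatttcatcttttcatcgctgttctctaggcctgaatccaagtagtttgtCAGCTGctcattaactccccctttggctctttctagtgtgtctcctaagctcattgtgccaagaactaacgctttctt
Peak between Rnf144b and Id4, chr13:47509313-47509462, plus strand: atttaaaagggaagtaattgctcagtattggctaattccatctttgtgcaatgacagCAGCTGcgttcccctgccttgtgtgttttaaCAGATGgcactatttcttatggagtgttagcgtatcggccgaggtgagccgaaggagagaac

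The other group shows paired homeodomain words from peaks flanked by Zfhx4, Neurod2 and Tbr1.
Peak 421.6 kb from Zfhx4, chr3:4795896-4796045, plus strand: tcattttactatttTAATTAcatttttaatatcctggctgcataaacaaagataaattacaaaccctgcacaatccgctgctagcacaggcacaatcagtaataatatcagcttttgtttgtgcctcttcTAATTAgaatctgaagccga
Peak between Cdk12 and Neurod2, chr11:98145029-98145178, plus strand: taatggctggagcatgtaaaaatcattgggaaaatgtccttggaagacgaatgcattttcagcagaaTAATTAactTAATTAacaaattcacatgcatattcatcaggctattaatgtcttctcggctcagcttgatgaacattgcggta
Peak within Psmd14, beside Tbr1, chr2:61588617-61588766, plus strand: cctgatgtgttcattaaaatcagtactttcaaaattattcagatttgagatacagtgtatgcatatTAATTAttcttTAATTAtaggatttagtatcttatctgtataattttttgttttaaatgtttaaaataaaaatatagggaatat

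In the peak between Fmod and Btg2, which had 6 matches to CAGCTG and 9 to CATCTG over its whole width, the window was 896 bp to the left of the midpoint. The window of the peak within Kif21a, with 3 matches to CATCTG, was 1092 bp to the left of it. By contrast, the windows of the peaks beside Fezf2 and between Cdk12 and Neurod2 lay 200 bp and 68 bp from their midpoints. The windows were picked for their matches, so these places are examples and not a measure.

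The wide peaks had a median width of 1884.5 bp (95% interval 1856 to 1914), against 983 bp (977 to 989) for the 5879 narrower peaks. Their quartiles were 1714 and 2164 bp, and 90% were at or under 2496 bp. Together they covered 1515 of the 7429 kb in peaks, or 20.4%. No gap in width set them apart. The peaks just inside the threshold, at 1600 bp, were chr12:118175902-118177501, chr19:38319714-38321313 and chr4:119954764-119956363, and those just outside, at 1598 and 1599 bp, were chr6:99918565-99920162, chr18:78651275-78652873 and chr8:8655035-8656633.

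The widest peak was 5243 bp wide. The second widest peak, at 4480 bp, was inside Tcf4, which encodes a bHLH partner protein, and the third, at 4444 bp, was 558.4 kb from Zfp608, a zinc finger gene.

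Of the other peaks among the 20 widest that are reported here, those nearest to a known regulator of neural development lay as follows. A peak of 3977 bp was 12.9 kb downstream of the start of Sox2, the neural stem cell factor, and a peak of 4023 bp was 340.2 kb downstream of the start of Meis2, a TALE homeodomain gene. Zfhx4, a zinc finger homeobox gene, had a peak of 4402 bp at 421.6 kb. A peak of 3508 bp was 293.4 kb from Bcl11a, a zinc finger factor of cortical neurons, and one of 3396 bp was inside Sox6, a SoxD factor. The fifth widest, at 4388 bp between Fmod and Btg2, had Btg2, an antiproliferative gene of neuron-producing progenitors, as its nearest gene at 16.9 kb. Others were in or between genes that are on none of the lists used here: 3715 bp between Ppp1r15b and Plekha6, 3501 bp in Etl4, 3471 bp in Kif21a, 3453 bp between Btn2a2 and Hist1h4h and 3390 bp between Chd2 and Fam174b. Among the 20 widest were also 2 peaks near Tmem161b, of 4243 and 3631 bp, and another of 3308 bp beside Zfp608.

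Wide peaks were intergenic about as often as narrower ones. The midpoint of 408 wide peaks (54.4%, 95% interval 50.8 to 58.0) was outside every annotated gene, against 54.5% (53.2 to 55.8) of the narrower and 54.5% of all peaks. Inside a named protein-coding gene were 290 wide peaks (38.7%, 35.2 to 42.3), where the narrower peaks had 40.4% and all peaks 40.2%. The wide peaks touched an annotated exon more often, in 34 cases (4.53%, 3.16 to 6.28) against 109 (1.85%, 1.52 to 2.23), but a wider peak has more bases that can do so. The authors removed peaks at exons and within 2.5 kb of a start site, which limits all of these shares. Here and throughout, intervals cover counting error only, peaks of 1 locus are not independent, and no p-value was computed.

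The wide peaks lay somewhat farther from gene starts. In all, 545 of them (72.7%, 69.3 to 75.8) lay over 50 kb from any named coding gene's start, against 66.4% (65.2 to 67.6) of the narrower and 67.1% of all peaks. Their median distance was 117 kb (101 to 136), and that of the narrower peaks 91.4 kb (87.3 to 95.4). The share of peaks that were wide was highest at middle distances. It was 7.09% (3.45 to 12.7) within 5 kb of a start, from 10 of 141 peaks. Between 200 and 500 kb it was 13.6% (11.9 to 15.6), and beyond 500 kb 11.1% (8.69 to 14.0). These intervals overlap. Over 500 kb away were 8.53% of the wide and 8.67% of the narrower peaks.

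Wide peaks also had closer neighbours. Another peak of any width lay within 50 kb of 451 wide peaks (60.1%, 56.5 to 63.7), against 48.8% (47.5 to 50.1) of the narrower and 50.1% of all peaks. The nearest other peak was at a median of 32.4 kb from a wide peak (27.9 to 37.5) and 53.8 kb from a narrower one (49.8 to 56.6). At very short range the groups were close, with 13.6% of the wide and 11.9% of the narrower peaks having a neighbour within 5 kb. For 125 of the 750 wide peaks (16.7%, 14.1 to 19.5) the nearest neighbour was itself wide, as it was for 10.6% (9.79 to 11.4) of the narrower. Some neighbours nearly touched: 12 wide peaks (1.60%) and 56 narrower ones (0.953%) had an edge under 100 bp from the edge of another peak.

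**Figure D1:**
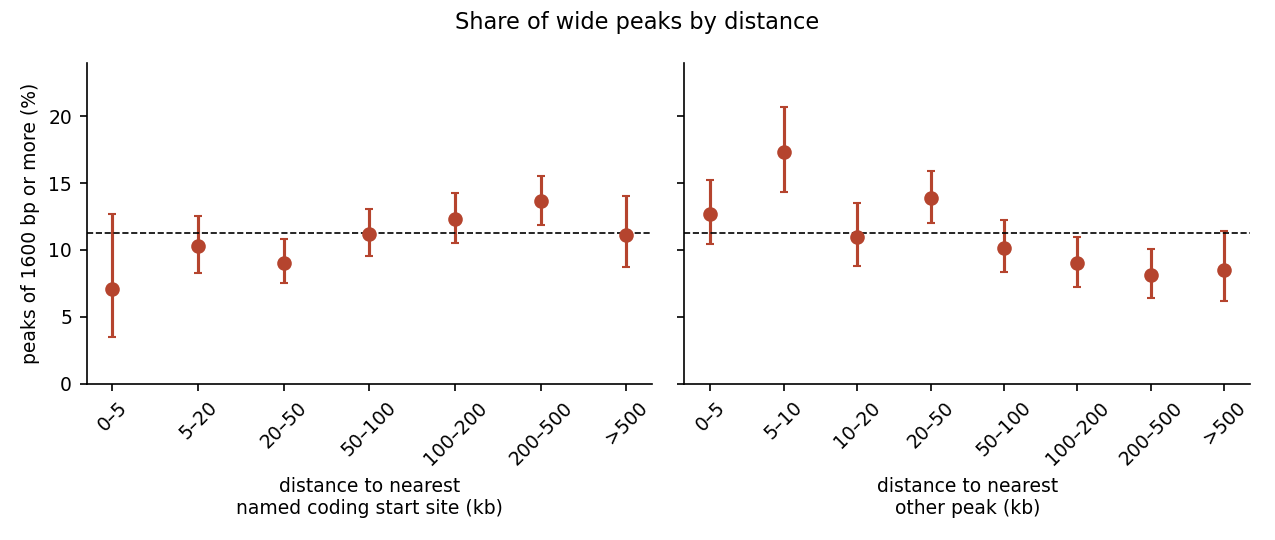
Share of all peaks that were 1600 bp or wider (%), by distance in kb to the nearest start site of a named coding gene (left) and to the nearest other peak (right). Points are shares with exact 95% intervals, and the dashed line is the 11.3% of all peaks. By neighbour distance the share was highest at 5 to 10 kb (17.4%, 14.4 to 20.7) and was between 8.09% and 8.99% in the bins beyond 100 kb.

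By chromosome, the share of peaks that were wide ran from 6.53% (13 of 199) on chromosome 17 to 16.8% (59 of 352) on chromosome 13 among the autosomes. The X chromosome had none among its 76 peaks, which allows a share of up to 3.95% (3 counts of the total, and 4.74% as the exact upper limit). Its widest peak was 1501 bp, and its median width, 892 bp, was the lowest of any chromosome. Chromosome 13 held the densest group of wide peaks, and 46 of its other 338 peaks (13.6%) were wide.

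That group filled the gene-poor stretch between Mef2c, a MADS-box factor of cortical neurons, and Ccnh, the gene of cyclin H, around Tmem161b, which encodes a transmembrane protein. Between midpoints 84012486 and 84901014 of chromosome 13, a span of 888.5 kb, 13 of 14 peaks were wide. Their widths were 1879, 1843, 1934, 2173, 1779, 4243, 1745, 1722, 1616, 2495, 3631, 2226 and 2299 bp in order along the chromosome, with a single peak of 804 bp before the last pair. The peaks of 1616 and 2495 bp were neighbours at chr13:84708335-84709950 and chr13:84709961-84712455. Of the wide peaks, 5 lay upstream of the Tmem161b start site and 8 downstream of it. In the other separate stretches of up to 1 Mb with the most wide peaks that are reported here the share was lower: around Neurog2, 7 of 11 peaks were wide over 894.6 kb. Around Sox4 and Cdkal1 it was 8 of 17, along Auts2 10 of 23 and beside Zfp608 10 of 26.

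To describe which genes had wide peaks, each peak was set beside the nearest named coding start site on either side within 1 Mb and the gene it lay in. By this count 4462 genes had a peak, 906 had at least 1 wide peak, 235 had 2 or more and 20 had 6 or more. Tmem161b had the most, with 14 wide of 17 peaks. Next came Zfp608 with 11 of 42, Auts2, a gene of neural development, with 10 of 31, Sox4, a SoxC factor of young neurons, with 10 of 31, and Wbscr17 with 9 of 29. Ccnh had 8 of 9. Meis2 had 7 of 12, Mms22l 7 of 9 and Nfia, a nuclear factor I gene of glial and neuronal development, 7 of 24. Among those with 6 each were Cdkal1 (of 15 peaks), Cryba4 (35), Gse1 (30), Id4 (20), Mef2c (8), Mn1 (36), Sox2 (16), Tle3 (25) and Tox3 (20). Neighbouring genes share peaks in this count, as Tmem161b and Ccnh, Auts2 and Wbscr17, and Mn1 and Cryba4 do. The count does not say which gene a peak acts on.

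A large number of peaks and a large share of wide ones did not always go together. Sox11, the other SoxC gene with many peaks, had 2 wide among 32 peaks (6.25%), of 1792 and 1687 bp, where Sox4 had 10 of 31 (32.3%, 16.7 to 51.4). Both counts are small and the interval of Sox4 is broad. Cryba4 and Mn1, with 35 and 36 peaks, had 17.1% and 16.7% wide. At the other end, both peaks beside Bhlhe22, a bHLH gene of cortical projection neurons, were wide, and of 9 peaks beside Neurog2, the proneural gene, 5 were. The element that the study cloned near Bhlhe22, which it calls Bhlhb5, is outside this count and lay on a narrower peak of 1545 bp.

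**Figure D2:**
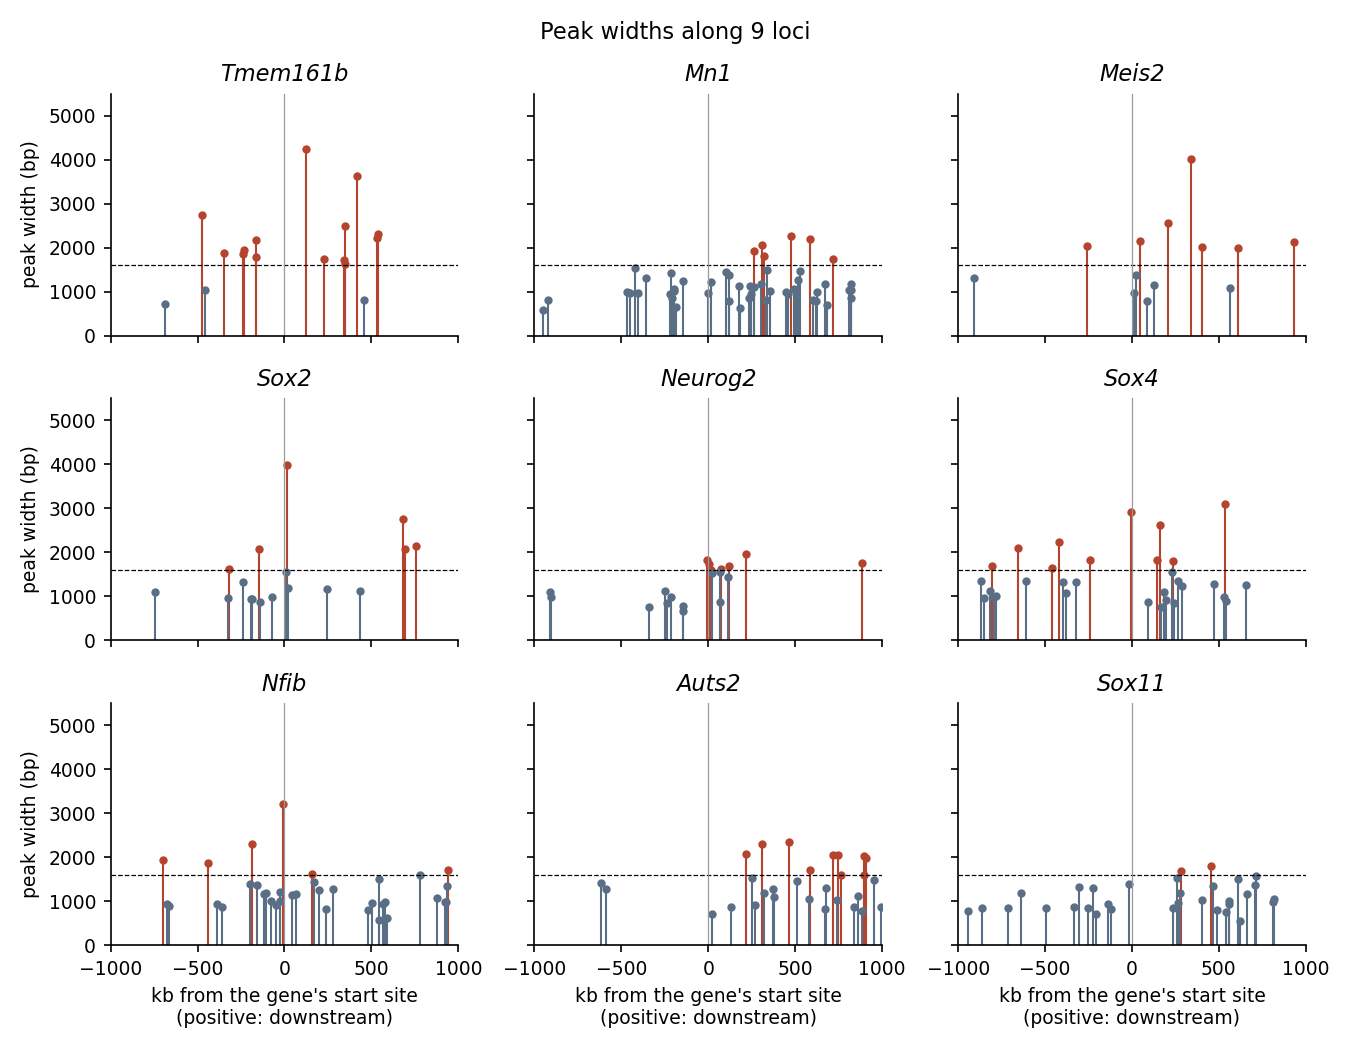
Width of each peak (bp) against the distance of its midpoint in kb from the start site of 9 genes, with positive values downstream in the gene's direction. Red lines are peaks of 1600 bp or more, blue lines narrower peaks, and the dashed line is 1600 bp. At Tmem161b 14 peaks stand above the line, while at Sox11 2 do, both downstream of the start.

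Among the genes that the study names beside its peaks or loci, not all of which have a known role in the neocortex, the peak nearest to the start site was wide for 7 of 19 (36.8%, 16.3 to 61.6). Over all named coding genes with a peak within 1 Mb of their start it was wide for 7.92%. The study named some of these genes for their peaks, so their share is not an independent result. For Fezf2, which specifies deep-layer projection neurons, it was the 2034 bp peak at chr14:13169497-13171530, 7.866 kb from the start. For Neurod2, a bHLH gene of differentiating neurons, it was 1996 bp wide at 4.403 kb, and for Bhlhe22 1689 bp at 27.5 kb. For Sox4 it was 2920 bp at 5.218 kb and for Nfib, another nuclear factor I gene, 3201 bp at 7.443 kb. Id4, an inhibitor of bHLH proteins, had a peak of 2113 bp at 101.7 kb, and Zfp608 one of 2778 bp at 12.5 kb. The nearest peaks of Tbr1, Eomes, Sox5 and Reln were narrower, at 940, 957, 1230 and 980 bp. These are factors of deep-layer neurons and intermediate progenitors, a SoxD factor and the secreted protein reelin. Of the 10 elements that the study cloned for reporter assays, 4 lay on wide peaks, among them those with Neurod2 (2207 bp), Tbr1 (1688 bp) and Id4 (1790 bp) as a flanking gene. The study picked those elements, so their share is not a sample of the peaks.

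Beside genes of cortical transcription factors and neuron identity, more of the peaks were wide than in the list as a whole. The gene lists were chosen with earlier results of these data known. They hold genes that the study named for their peaks, such as Sox4, Sox11, Nfib and Tle3, so this is a description and not an independent result. Over the 71 genes in 5 cortical lists, 66 had a peak, 42 a wide peak and 27 at least 2. Of all wide peaks, 121 (16.1%, 13.6 to 19.0) were beside such a gene, against 6.70% (6.08 to 7.37) of the narrower and 7.77% of all peaks. Read the other way, 121 of the 515 peaks beside them (23.5%, 19.9 to 27.4) were wide. Without the 5 listed genes with the most wide peaks it was 85 of 419 (20.3%, 16.5 to 24.5). Among the 40 listed genes with 5 or more peaks the median share of wide peaks was 23.5%, and 7 had none, or 17.5%. Among all 679 genes with 5 or more peaks the median was 12.5%, and 280 (41.2%) had none.

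By list, 31 of the 108 peaks beside radial glia and progenitor factors were wide (28.7%, 20.4 to 38.2), among them 6 each beside Id4 and Sox2 and 4 beside Sox9. Beside intermediate progenitor and proneural genes 20 of 79 were (25.3%), with 5 beside Neurog2 and 4 each beside Neurod2 and Insm1, a zinc finger gene of intermediate progenitors. Beside upper-layer genes it was 32 of 124 (25.8%), with 6 each for Mef2c and Tle3 and 4 each for the POU factor genes Pou3f1 and Pou3f3. Tle3 is counted by its place on the list, while the study gives its neocortical role as suspected only and cites expression in germinal zones. The wide peaks of Mef2c were also counted for Tmem161b. Of the 17 upper-layer genes, 10 had a wide peak. Unc5d, Lmo4, Dok5 and Cux2 had none among 9, 8, 8 and 7 peaks. Deep-layer genes had 29 of 138 (21.0%), among them 4 of 10 beside Fezf2 and 2 of 6 beside Bcl11b, the zinc finger gene of subcerebral projection neurons. Nfia, with 7 of 24, and Nfib, with 4 of 30, are on this list too. Of the 14 deep-layer genes with a peak, 11 had a wide one. Etv1 had 1 of 15, and Ldb2 and Foxp2 had none among 8 and 7 peaks. The SoxC and Nfi genes had 23 of 126 (18.3%), and 21 of these were beside Sox4, Nfia and Nfib. Some genes, such as Nfia, Nfib and Bhlhe22, are on more than 1 list. A wide peak was found beside 12 of the 18 radial glia and progenitor genes with a peak. For intermediate progenitor and proneural genes it was 8 of 13.

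For most of the other lists the interval held the 11.3% of all peaks. Axon guidance genes, which are receptors and ligands that steer growing axons, had 24 wide of 180 peaks (13.3%, 8.73 to 19.2), of which Epha5 had 5, Plxna2 4 and Epha3 3. Notch pathway genes had 6 of 38 (15.8%, 6.02 to 31.3), with 2 beside the ligand gene Dll1. That interval is broad and also holds the shares of all 5 cortical lists. Wnt pathway genes had 6 of 61 (9.84%), with 2 beside the receptor gene Fzd8. Genes of neural adhesion proteins had 7 of 132 (5.30%, 2.16 to 10.6), an interval that lies below 11.3%. Subpallial interneuron genes, which belong to the ventral forebrain, had 1 of 32 (3.13%), and the Hox genes, which pattern the hindbrain and spinal cord, had 0 of 2 peaks. Genes of cytosolic ribosomal proteins had 6 of 37 (16.2%, 6.19 to 32.0), 3 of them beside Rps24, so a share above 11.3% with an interval this broad was also found in a list with no role in cortical identity.

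**Figure D3:**
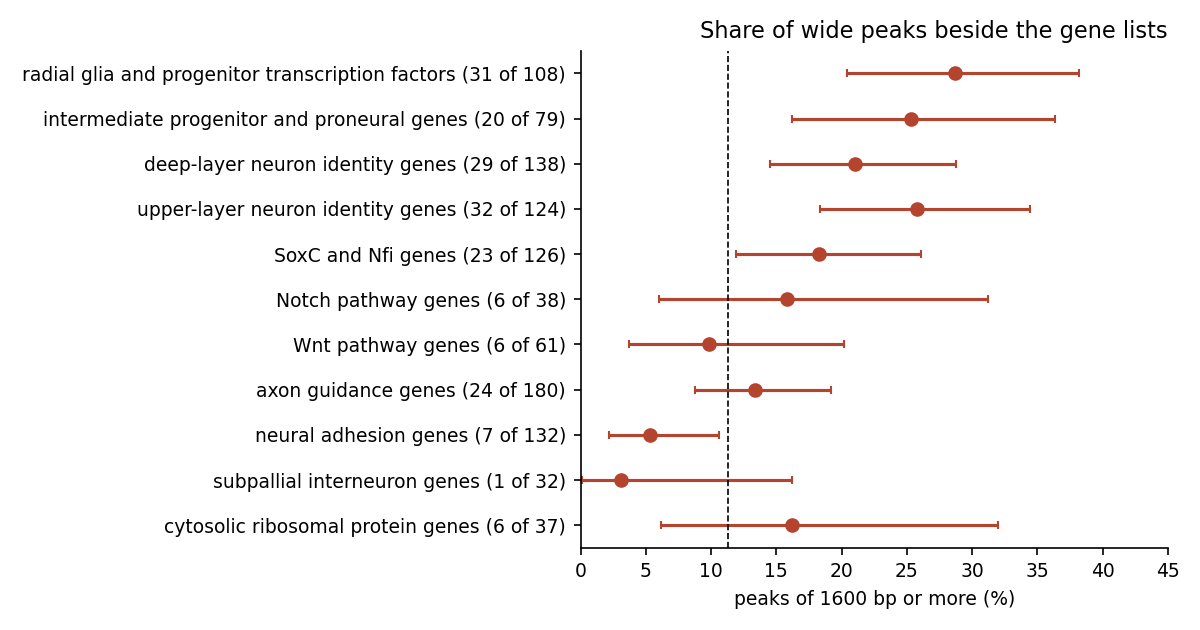
Share (%) of the peaks beside the genes of each list that were 1600 bp or wider, with exact 95% intervals and counts in brackets, and a dashed line at 11.3%. The intervals of the 5 lists at the top lie above the line, that of the adhesion genes lies below it and the others cross it. The Hox genes, with 2 peaks, are not drawn.

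The E-boxes were placed differently in wide and in narrower peaks. In the middle 500 bp, the same length in every peak, CATCTG was found in 330 wide peaks (44.0%, 40.4 to 47.6), against 59.1% (57.8 to 60.3) of the narrower and 57.4% of all peaks. CAGCTG was found in 208 (27.7%, 24.6 to 31.1), against 41.2% (39.9 to 42.5) and 39.7%. Both strands were searched, and a place matched on both strands was counted once. TAATTA was as frequent in both, at 237 wide peaks (31.6%, 28.3 to 35.1), 31.2% of the narrower and 31.3% of all. Across classes of width the share with CATCTG went from 61.5% under 800 bp through 54.0% at 1200 to 1599 bp to 47.7% at 1600 to 1999 bp and 36% (25.2 to 47.9) from 2500 bp on. The share with TAATTA rose and then fell. It was 25.7% under 800 bp, 35.7% at 1000 to 1199 bp, 34.2% at 1600 to 1999 bp and 26.7% (17.1 to 38.1) from 2500 bp on.

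**Figure D4:**
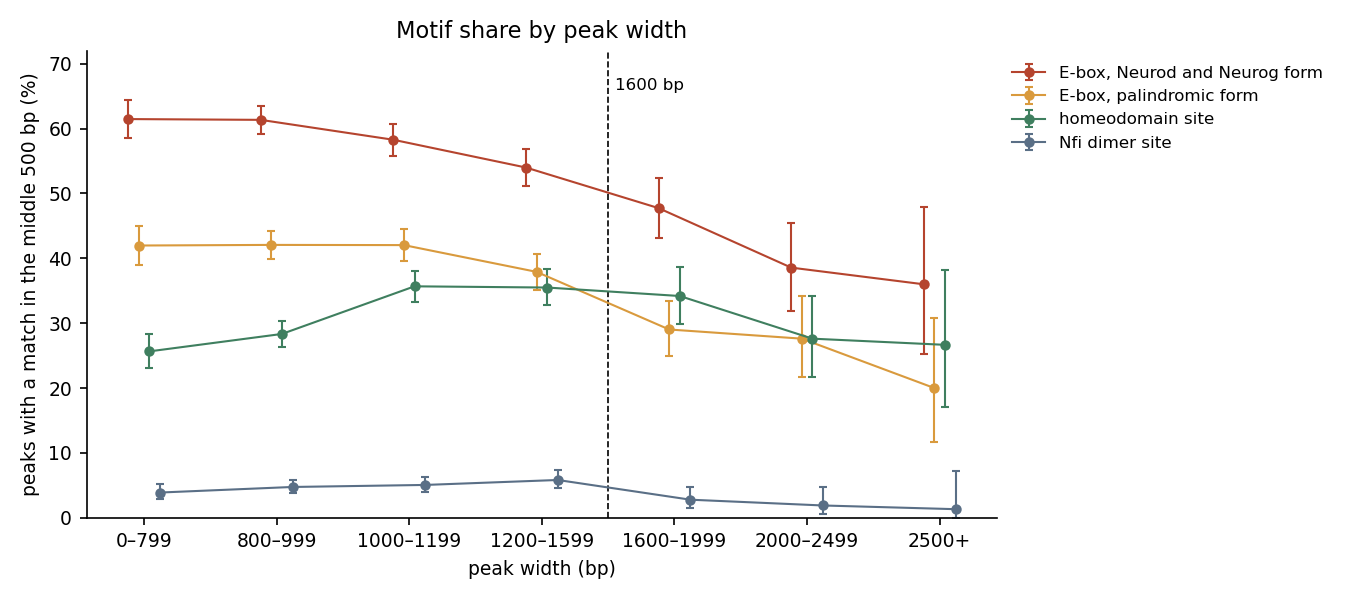
Share (%) of peaks with each motif in their middle 500 bp, by class of peak width in bp, with exact 95% intervals. The dashed line is the 1600 bp threshold. Both E-box forms were less frequent in wider classes, from 61.5% to 36% for CATCTG (Neurod and Neurog form) and from 42.0% to 20% for CAGCTG (palindromic form), which stayed near 42.0% up to 1199 bp and was 37.9% (35.2 to 40.7) just under and 29.0% (24.9 to 33.4) just over the threshold.

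The difference was large at the middle of the peaks. At 300 to 500 bp from the midpoint it was reversed, with both E-box forms denser in wide peaks. It was smaller in windows placed by share of the width. In the middle 1000 bp it was smaller too, at -1.18 points for CATCTG and -3.63 for CAGCTG, wide minus narrower. In wide peaks CATCTG matched at 1.04 places per kb (0.883 to 1.22) within 100 bp of the midpoint and at 1.45 per kb (1.27 to 1.66) between 400 and 500 bp from it. In the narrower peaks the order was the opposite, with 2.48 per kb (2.39 to 2.57) at the midpoint and 0.819 per kb (0.768 to 0.872) at 400 to 500 bp. Since 3121 of the narrower peaks (53.1%) were under 1000 bp wide, much of the sequence at that distance lay outside them. In the 2758 narrower peaks that reached 500 bp on both sides the values were 2.14 per kb (2.02 to 2.26) at the midpoint and 0.877 per kb (0.801 to 0.959) at 400 to 500 bp. CAGCTG matched in wide peaks at 0.733 per kb (0.603 to 0.884) within 100 bp and at 0.907 per kb (0.761 to 1.07) at 300 to 400 bp. These intervals overlap. The narrower peaks had 1.51 and 0.562 per kb at the same places. Windows of 500 bp were also set at 25% and 75% of each peak's width in place of its midpoint. There CATCTG was in 46.0% and 46.7% of the wide and in 48.5% and 49.7% of the narrower peaks. In peaks under 1000 bp these windows run past the edge and also reach the midpoint. The file holds no summits, so the midpoint of a wide peak is not known to be where most p300 was bound.

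TAATTA had another form. In wide peaks it stayed between 0.867 and 1.02 matches per kb out to 500 bp from the midpoint and was 0.633 per kb at 500 to 600 bp, while around the midpoints of narrower peaks it went from 1.11 to 0.452 per kb at 400 to 500 bp. In narrower peaks of 1000 bp or more it went from 1.25 to 0.499 per kb (0.441 to 0.561). With each peak split into 10 equal bins along its width, the wide peaks had most CATCTG in bins 3 and 4 (1.31 per kb each) and in bin 8 (1.46 per kb), and less in bins 5 and 6 (1.04 and 0.977 per kb). The narrower peaks had most in bins 5 and 6, at 2.32 and 2.47 per kb.

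**Figure D5:**
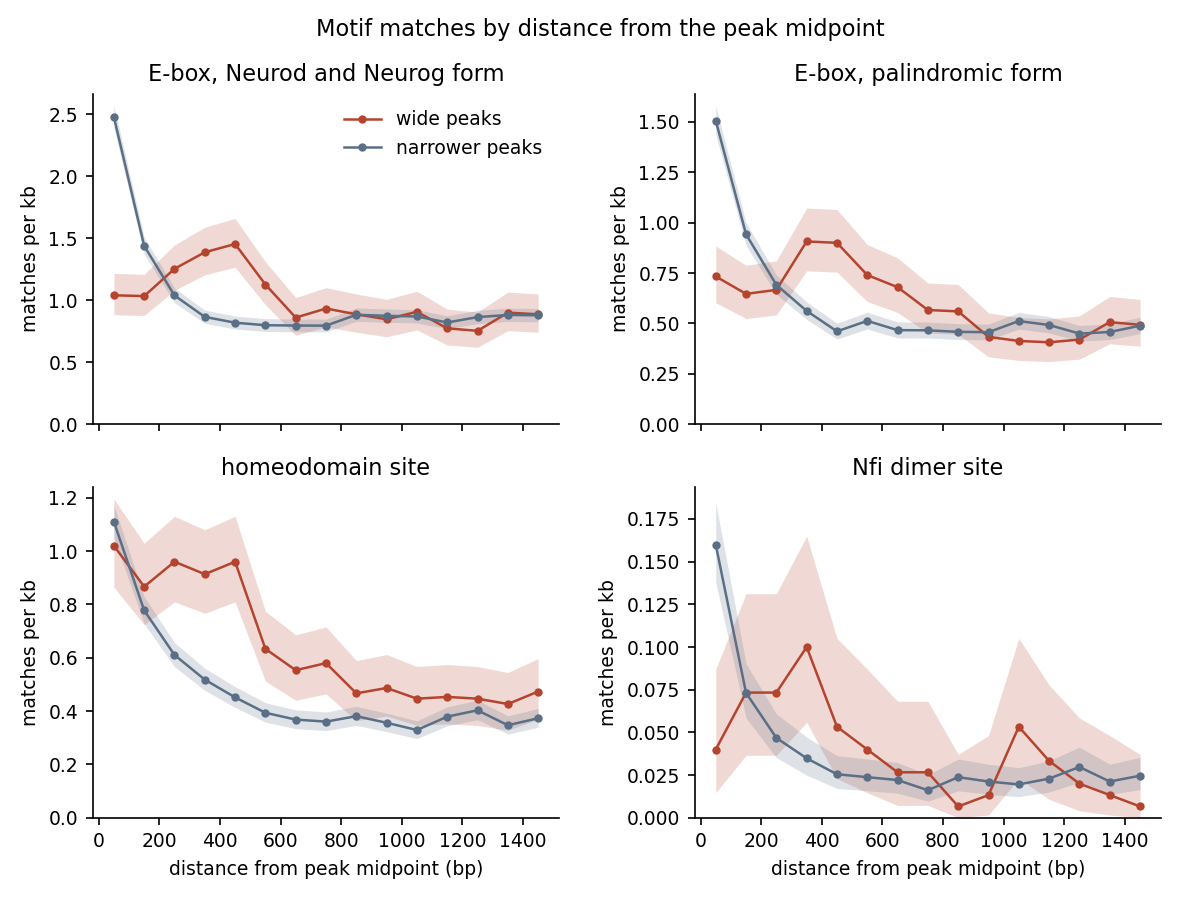
Matches per kb against distance from the peak midpoint in bp, both sides pooled, in steps of 100 bp, for 4 motifs in wide (red) and narrower (blue) peaks. Bands are exact 95% Poisson intervals, and distances beyond a peak's edge are counted too. Both E-box curves of the narrower peaks are highest at the midpoint, those of the wide peaks are highest at 300 to 500 bp, and the homeodomain curve of the wide peaks stays level to 500 bp. For CAGCTG in wide peaks the intervals at the midpoint and at 300 to 500 bp overlap.

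Over their whole width more of the wide peaks had a match, while the E-boxes were fewer per kb and TAATTA was not. CATCTG was in 663 of them (88.4%), 286 had 3 or more and the most was 9, and the density was 1.09 per kb against 1.32 in narrower peaks. CAGCTG was in 71.2% of them, at 0.680 against 0.836 per kb. TAATTA was in 69.9% of the wide peaks, at 0.746 against 0.688 per kb. An E-box of either form was on both sides of the midpoint in 519 wide peaks (69.2%) and on neither side in 33 (4.40%), while 42.8% of the narrower had one on both sides and 12.2% on neither. Each side of a wide peak is longer, so these counts are a description.

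Of the other motifs in the middle 500 bp, none had a share in wide peaks whose whole interval was above the share of all peaks. The CTCF core, CCANNAGNNGGC, was in 18 wide peaks (2.40%, 1.43 to 3.77) against 5.72% of the narrower and 5.34% of all. The full Nfi dimer site, TGGCNNNNNGCCA, was in 18 as well (2.40%), against 4.90% and 4.62%. The Meis word TGACAG was in 278 (37.1%, 33.6 to 40.6), against 43.7% and 43.0%. In the middle 1000 bp the CTCF core was in 6.80% of the wide and 8.39% of the narrower peaks, and the Meis word in 59.9% and 62.5%. For the rest, in the middle 500 bp, the interval of the wide peaks held the share of all peaks. The Sox word AACAATG was in 65 (8.67% against 9.64% of all), the POU octamer ATGCAAAT in 64 (8.53% against 7.60%), the AP-1 word TGANTCA in 98 (13.1% against 14.9%), and the TEAD word ACATTCC in 44 (5.87% against 7.23%). The T-box word AGGTGTGA was in 17 (2.27% against 3.03%), the Mef2 site in 13 (1.73% against 1.46%) and the Rfx site GTNNCCATGGNNAC in 6 (0.800% against 1.03%). A match is a description of the letters and not of a bound factor.

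The base composition of the wide peaks was slightly more AT-rich at the middle. The GC content of the middle 500 bp had a median of 44.8% (44.2 to 45.4) in wide and 46.4% (46.0 to 46.6) in narrower peaks. The ratio of observed to expected CpG was higher in the wide peaks, with a median of 0.271 (0.260 to 0.283) against 0.231 (0.226 to 0.235). A CpG-rich middle, with GC over 50% and a ratio over 0.6, was found in 24 wide peaks (3.20%, 2.06 to 4.72), against 1.89% of the narrower and 2.04% of all. When the narrower peaks were weighted to the GC content of the wide ones, the difference in the share with CATCTG, wide minus narrower, was -14.3 points, and unweighted it was -15.1 points.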

How the data were processed

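p300 ChIP and input libraries were made from the same dissected E14.5 dorsal cerebral wall, 1 library each, and the peaks of the ChIP library are the members described. The authors aligned reads with ELAND to mm9, called peaks against the input with MACS (1.4, per the submitters' processing notes) and took out those that touched exons, lay under 2.5 kb from a start site or seemed to come from repeated mapping. Their deposited list holds 4 columns, namely chromosome, start, end and number, and no other measurement. Width was end minus start as deposited, and a wide peak has 1600 bp or more. Sequence came from NCBIM37, the assembly of mm9, and 18679 named protein-coding genes from GENCODE vM1, each placed at the start of the transcript that codes for the longest protein. Shares carry exact Clopper-Pearson and densities exact Poisson 95% intervals, for counting error only. No test was run, since there is 1 library and peaks are not replicates. The members, motifs and gene lists were chosen with earlier results of these data known. The genes named were those of the 20 widest peaks, those the study treats, those with the most wide peaks and listed genes with 2 or more wide peaks. Counts of matches and distances were tested on simulated data. Repeats were not analysed here, and some genes and places that the naming rule covers are not reported here. Analysis used Python 3.11.15 with numpy 2.4.6, pandas 2.3.3 and scipy 1.17.1, and figures matplotlib 3.10.9.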

Additional observations from a re-analysis of the deposited data

How the results depend on the processing

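Values here are wide minus narrower peaks, in percentage points, or for GC content the difference of medians. With the threshold at 2000 bp the difference was 17.3 points for a neighbour within 50 kb (main value 11.3), -20.3 for CATCTG in the middle (-15.1) and -4.09 for TAATTA (0.353). With 20 kb in place of 50 kb the neighbour difference was 6.63. In the middle 300 bp the difference for CATCTG was -22.2 and that in GC content -2.33 (main value -1.60). In the middle 1000 bp the differences were -1.18 for CATCTG, -3.63 for CAGCTG (main value -13.5), 9.51 for TAATTA, -0.211 for the Nfi site (-2.50) and -0.500 for GC content, and over the whole peak that for GC content was -0.823. Windows at 25% and 75% of the width were added after the data were seen. There the differences were -2.55 and -2.98 for CATCTG and -1.30 and -2.21 for CAGCTG. That of the Nfi site was 0.155 at 25%, the opposite sign, and -1.30 at 75%, within the interval of its main value. So the lower E-box shares of the wide peaks depend on a short window at the midpoint, and the longer windows run past the edges of many narrower peaks. The lower Nfi share moved in the middle 1000 bp and at 25%, but not beyond that interval at 75%. In all, 44 values for these results and for location, distance and listed genes stayed within the interval of the main value, the Nfi value at 75% among them. These include values under a 1400 bp threshold, without peaks within 5 kb of another and with other gene sets. For the other 9 motifs 50 values stayed within it and 4 did not: in the middle 1000 bp the CTCF core (-1.59, main value -3.32), the Meis word (-2.59, main value -6.68) and the POU octamer (4.74, main value 1.05), and at 2000 bp the Sox word (-3.11, main value -1.10). The lower CTCF and Meis shares thus also depend on the window. No replicate could be left out, and no paired analysis was possible because there is 1 ChIP library. The depth behind each peak is unknown.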

Other observations

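An unguided count of every 6-base word in the middle 500 bp was added after the data were seen. Of 2080 words, counted together with their reverse complements, 959 were in a smaller and 1121 in a larger share of wide than of narrower peaks, with a median difference of 0.15 points. The word with the lowest difference was CATCTG (as CAGATG), at -15.1 points, followed by AGATGG at -13.8 points, which overlaps it, and CAGCTG at -13.5 points. GCCAGC at -9.89 and CTGCCA at -9.45 came next. At the other end were TTAAAA, in 55.2% of wide and 45.8% of narrower peaks, AAAAAA, in 47.7% and 39.2%, and AAATCA, in 41.1% and 32.8%. TAATTA was at place 1152 from the lowest, so the AT-rich words that were more frequent at the middle of wide peaks did not include it. The words overlap and share base composition, and no test was made on them.

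With each peak split into 10 equal bins, the POU octamer ATGCAAAT was at 0.211 and 0.231 matches per kb in bins 3 and 4 of wide peaks. Bin 5 had 0.132 (0.0806 to 0.204) and bin 6 0.224 (0.155 to 0.314), and these intervals overlap. Bin 8, at 0.119, was lower than bin 5, and bin 9 had 0.185, so the values were irregular. The narrower peaks had their highest value, 0.250, in bin 5. The values of the wide peaks rest on 18 to 35 matches per bin.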
